A study of Ovis aries with 23 samples.

Results

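Gene expression in the infarct of the fetal sheep ventricle was compared with that in ventricle of fetal sheep after sham surgery. The 6 arrays were chosen by their titles alone, 3 labelled fetal infarct and 3 labelled fetal sham, out of 23 arrays in the series. The fetuses were at 105 days of gestation. In the infarct group the second diagonal branch of the left anterior descending artery (LAD) had been ligated, and the tissue was taken 3 days after surgery. The sham group had sham surgery, and no separate time is given for it. No breed, sex or genotype is stated, all arrays carried Cy3-labelled RNA, and nothing says that the replicates of a group came from separate animals, so the p-values weigh differences only against the variation among these samples, part of which may be technical. The other arrays were border and remote zone tissue of infarcted fetal hearts and the same 4 tissues of adolescent sheep at 6 months of age, 3 arrays a group except adolescent sham with 2. They served for the estimate of spread and for comparison.

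A coronary ligation stops the blood supply of a piece of the ventricular wall, and the heart muscle cells in it die. In adult mammals neutrophils and then monocytes enter the dead muscle, release cytokines such as interleukin 6 and digest the debris. Fibroblasts follow, lay down collagen and leave a scar, whereas the heart of a fetal sheep is known for repairing an infarct with little scar. Heart muscle burns fatty acids and glucose in its mitochondria, and the fetal heart leans more on glucose and lactate than the adult one. In bulk tissue, fewer cells of a type and less of a transcript in each cell cannot be told apart.

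Signals are given as log2 of the processed signal minus the 75th percentile of the array, so that 0 is the level of the probe at that percentile and 1 unit is 2-fold. A difference is infarct minus sham with its standard error, and a gene rose or fell where the Benjamini-Hochberg adjusted p over all probes tested was under 0.05. Of 12451 probes tested, 1159 rose (9.31%) and 958 fell (7.69%). With each array scaled to its median in place of the 75th percentile, 980 rose and 1295 fell. Names were available for 887 genes, each read from its brightest tested probe. Of these, 128 rose (14.4%) and 55 fell (6.20%), at 2-fold or more in 105 and 32 cases. The counts given below for each gene list are to be read beside these shares. In 180 of the 183 named genes called, no infarct array overlapped a sham array, and the same held for 39.7% of all 887 genes. The median difference was -0.08 over all probes and 0.00 over the named genes.

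On the 6 arrays the 75th percentile of the signal lay between 487.0 and 865.0 intensity units, and between 73.57% and 83.74% of probes were well above background by the scanner software's own test. Fetal sham 2 had 16 spots whose local background was above their signal, and the other 5 arrays had at most 3. The total count of calls depended on single arrays. It came to 832 with fetal infarct 3 left out, to 1115 with fetal sham 3 left out and to 1214 with fetal sham 1 left out. Without those 3 arrays in turn, the probes that rose numbered 580, 709 and 804, and those that fell 252, 406 and 410. The named genes that rose numbered 71, 84 and 95 in the same order, and those that fell numbered 13, 29 and 17. Without fetal infarct 2, 32 named genes fell. Of 101 called genes selected by rule for description, 52 passed with each of the 6 arrays left out in turn, 44 of them higher and 8 lower.

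Before any cardiac result, 1 library stood apart. The sham arrays carried transcripts of plasma proteins that the liver makes, most of all fetal sham 1. AHSG, which encodes the fetal plasma protein fetuin-A, read 7.28, 0.23 and 2.51 on the 3 sham arrays in order of replicate and -5.36, -3.33 and -6.86 on the infarct arrays. All 3 sham values lay above all infarct values, and fetal sham 1 lay far above the other sham arrays. The difference was -8.52 ± 1.33 (SE, adjusted p = 0.00159), and AHSG was well above background on 1 of 3 infarct arrays. With the other 2 set to the limit of detection, the lowest signal called above background on an array, the sham mean was 310.0-fold higher. ALB, the gene of serum albumin, read 3.80, -3.01 and 0.04 in sham and -5.63, -4.99 and -5.72 in infarct. It fell by 5.73 ± 1.13 (adjusted p = 0.00346), with the same order among the sham arrays and 2 of 3 infarct arrays above background.

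SERPINA1, the gene of the protease inhibitor alpha-1 antitrypsin, read 3.04, -4.15 and -2.37 in sham and -6.49, -5.87 and -7.42 in infarct, a difference of -5.43 ± 1.42 (adjusted p = 0.0147). It was above background on 1 of 3 infarct arrays, and with the others at the limit of detection the sham mean was 24.7-fold higher. A second probe of the gene gave -4.98 (adjusted p = 0.0164). The sequence of the brighter probe is printed to show what the arrays read for this liver gene.
SERPINA1: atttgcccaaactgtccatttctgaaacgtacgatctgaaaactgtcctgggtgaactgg
SPP2, which encodes a phosphoprotein secreted by the liver, read 0.97, -6.28 and -3.16 in sham and was not well above background on any infarct array. The sham mean was at least 9.78-fold higher. Fetal sham was the 1 group with 2 or more arrays above background for SPP2. The gene thus entered the test only through the group where it is high, and its call is given as a description. TTR, the thyroid hormone carrier transthyretin, showed the same order, with 2.41, -5.32 and -1.81 in sham against -4.20, -5.43 and -5.43 in infarct, and did not pass the test (-3.44 ± 1.35, adjusted p = 0.0865). Transferrin, TF, read 3.45 on fetal sham 1 and 0.12 and 0.63 on the other sham arrays, inside the infarct range of 0.43 to 1.13 or below it.

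Over the list of liver transcripts, 4 of 13 measured members fell and none rose, with a median of -0.65. The 4 include SPP2, whose call is a description. The standard errors pool the spread of all 8 groups, whereas the sham arrays spread widely for these genes. With the 6 arrays of both groups alone in the fit, 1 member fell, AHSG. The 13 signals summed to 7.66, 3.04 and 3.88 on the log2 scale in sham, to between 2.96 and 3.72 in infarct, 2.81 and 3.47 in border and 2.61 and 2.80 in remote tissue. Fetal sham 2 lay inside the infarct range and the other 2 sham arrays above it. The sum weighs bright members most, and the bright member APOA1 had another order. It read 2.03, 2.78 and 2.88 in infarct and 1.74, 1.43 and 1.67 in sham (0.95 ± 0.39, adjusted p = 0.102). For AHSG, ALB and SERPINA1 fetal sham 2 lay above every infarct array. Without fetal sham 1, 3 members fell: AHSG by 6.55 (adjusted p = 0.00776), ALB by 3.96 (adjusted p = 0.0130) and SPP2 by 3.19. The SPP2 value is again a description, since the background filter was not rerun without that array. SERPINA1 was then at -3.33 (adjusted p = 0.0772), and its call was also lost without fetal infarct 3, at -5.02 (adjusted p = 0.0695). The source of these transcripts was not tested.

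**Figure D1:**
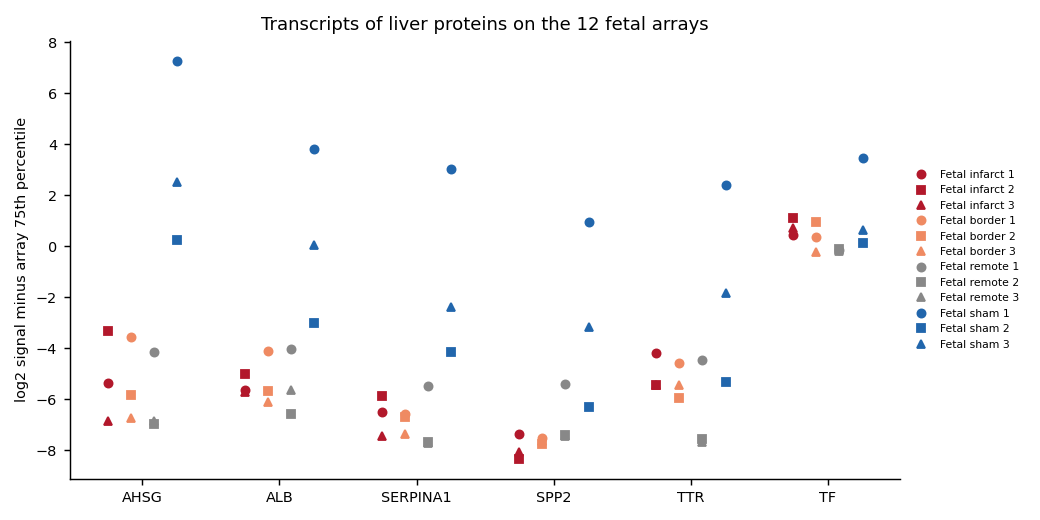
Transcripts of 6 liver proteins on the 12 fetal arrays, as log2 signal minus the array's 75th percentile (vertical axis), with the tissue as colour and the replicate number as marker shape. Fetal sham 1 is the highest array for each gene shown, at 7.28 for AHSG, and for AHSG, ALB and SERPINA1 the other 2 sham arrays also lie above all infarct arrays.

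The strongest rise was that of phagocyte genes. Of 13 measured markers of macrophages and monocytes 11 rose and none fell, and their median difference was 3.06. The same number rose with each of the 6 arrays left out in turn. SLC11A1, a metal transporter of the phagosome membrane, read 1.73, 1.87 and 2.61 on the infarct arrays and -4.24, -1.98 and -4.26 on the sham arrays. Every infarct array was above every sham array, and the difference was 5.56 ± 1.11 (adjusted p = 0.00364), a 47.1-fold ratio. CD14, the co-receptor for bacterial lipopolysaccharide, read -0.28, -0.31 and 0.37 in infarct against -2.93, -2.94 and -3.17 in sham (2.94 ± 0.50, adjusted p = 0.00181). For CD14 too the groups did not overlap.

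CD86, a costimulatory protein on antigen-presenting cells, read 1.34, 0.23 and 1.74 in infarct and -2.71, -1.72 and -2.86 in sham (3.53 ± 0.67, adjusted p = 0.00273). CTSS, the cysteine protease cathepsin S that trims the invariant chain of class II molecules, rose by 3.52 ± 0.59 (adjusted p = 0.00174). FCER1G, the signalling chain shared by several Fc receptors, rose by 3.06 ± 0.55 (adjusted p = 0.00214), and C5AR1, the receptor of complement fragment C5a, by 3.10 ± 0.64 (adjusted p = 0.00452). None of these 4 genes had an infarct array as low as a sham array. The 2 markers that did not pass were CD80, with -0.14, and TYROBP, with 0.04. The 13 signals summed to between 5.78 and 6.76 in infarct and between 2.97 and 3.38 in sham, with no overlap.

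Of 6 measured neutrophil markers 3 rose, and all 3 are also made by monocytes. ITGB2, the shared beta chain of the leukocyte integrins, read 1.84, 2.41 and 3.11 in infarct and -1.57, -0.90 and -1.85 in sham (3.90 ± 0.71, adjusted p = 0.00232). ITGAM, the alpha chain that joins it in the complement receptor of myeloid cells, read -3.29, -3.13 and -3.14 in infarct, and its probe was not well above background on any sham array. The infarct mean was at least 6.43-fold higher (adjusted p = 0.00501). CYBB, the catalytic subunit of the phagocyte oxidase, rose by 2.56 ± 0.52 (adjusted p = 0.00417). The granule genes LTF and CATHL3 gave -0.33 and -0.91, neither past the threshold. MMP9, also on this list, did not pass either, and the median over the 6 markers was 2.09. Sequences are printed for the probes of ITGAM and, from the 2 families described next, IL1A and PLAUR, because these 3 transcripts separate the groups with little spread among the infarct arrays.
ITGAM: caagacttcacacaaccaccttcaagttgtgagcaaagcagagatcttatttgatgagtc
IL1A: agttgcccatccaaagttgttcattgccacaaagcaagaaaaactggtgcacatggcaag
PLAUR: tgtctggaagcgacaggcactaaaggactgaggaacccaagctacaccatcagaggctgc
All probe sequences are those of the array files, are 60 bases long and are written in lower case throughout because no part of them was singled out.

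**Figure D2:**
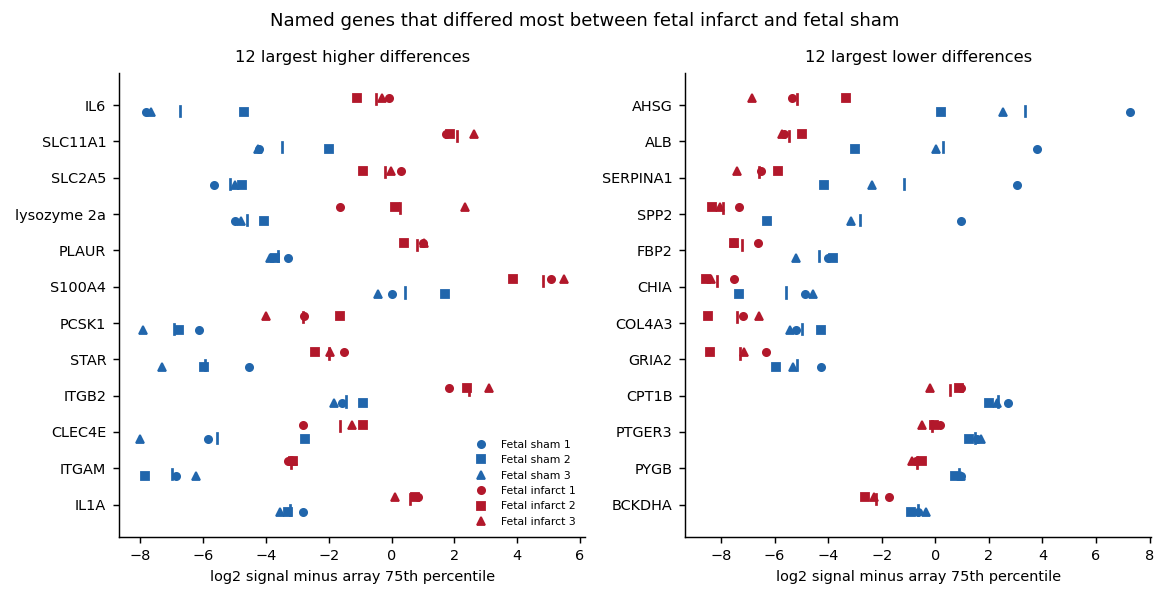
Signal of the 12 named genes with the largest higher and the 12 with the largest lower difference that had 1 sign on every slide, as log2 signal minus the array's 75th percentile (horizontal axis), with 1 marker per array and a short line at each group mean. Genes are ranked by the fitted difference, which for some rests on values not above background. IL6 has infarct arrays from -1.11 to -0.09 and sham arrays from -7.82 to -4.71, and the groups overlap for CLEC4E alone.

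A lysozyme probe (LOC443321, described on the array as lysozyme 2a) read -1.66, 0.11 and 2.34 in infarct and -5.00, -4.05 and -4.80 in sham, a difference of 4.89 ± 1.20 (adjusted p = 0.0110). The infarct arrays were spread widely but all lay above the sham arrays, and without fetal infarct 3 the difference was 3.85 (adjusted p = 0.0740). Ruminants carry many similar lysozyme genes, so which of them this probe reads is uncertain. CLEC4E, a receptor of macrophages for material from dead cells and mycobacteria, differed by 3.88 ± 1.14 (adjusted p = 0.0265) with overlapping arrays, since fetal sham 2 at -2.77 was above fetal infarct 1 at -2.81. It was above background on 1 of 3 sham arrays, and with the others at the limit of detection the ratio was 8.75-fold. Its call was lost on omission of fetal sham 1 (3.73, adjusted p = 0.0793), fetal infarct 2 (3.51, adjusted p = 0.0796), fetal infarct 3 (3.69, adjusted p = 0.0952) or of fetal sham 3 (2.65, adjusted p = 0.143).

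Cytokine genes rose in 9 of 19 measured cases and fell in none, with a median of 0.92. IL6, the inducer of the acute phase response, read -0.09, -1.11 and -0.30 on the infarct arrays and -7.82, -4.71 and -7.65 on the sham arrays. The fitted difference was 6.23 ± 0.98 (adjusted p = 0.00159). Only 1 of 3 sham arrays was above background, and with the other sham arrays set to the limit of detection the ratio was at least 31.6-fold. IL1A, an interleukin 1 stored in cells and released on damage, read 0.84, 0.75 and 0.11 in infarct and -2.83, -3.30 and -3.57 in sham (3.80 ± 0.55, adjusted p = 0.00149). TNF, the tumour necrosis factor, read -1.53, -2.13 and -0.96 against -4.23, -4.24 and -3.86 (2.57 ± 0.49, adjusted p = 0.00291). For all 3 genes every infarct array was above every sham array.

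IL10, which restrains macrophage activation, rose as well, from -4.87, -5.46 and -5.08 in sham to -2.24, -2.05 and -1.33 in infarct (3.27 ± 0.50, adjusted p = 0.00159). IL18, an interleukin 1 relative that drives interferon gamma, rose by 2.44 ± 0.35 (adjusted p = 0.00143), and of its other probes 1 gave 2.44 and 1 gave -0.02. CXCL8, a chemokine that attracts neutrophils, spread from -1.43 to 1.48 in infarct and from -4.17 to -2.71 in sham (3.46 ± 0.93, adjusted p = 0.0171). Its groups did not overlap, but the call was lost on omission of fetal infarct 1 (2.67, adjusted p = 0.0795), fetal sham 1 (3.35, adjusted p = 0.0568), fetal infarct 3 (3.58, adjusted p = 0.0532) or of fetal sham 3 (3.15, adjusted p = 0.0680). IL1B rose by 1.96 ± 0.52 (adjusted p = 0.0161), lost on omission of fetal infarct 1 (1.58, adjusted p = 0.0718), fetal sham 2 (1.74, adjusted p = 0.0557), fetal infarct 3 (2.03, adjusted p = 0.0509) or of fetal sham 3 (1.95, adjusted p = 0.0513).

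The list count fell to 5 without fetal infarct 3. Members that passed besides those described were IL1RN, the natural antagonist of the interleukin 1 receptor (3.06 ± 0.98, adjusted p = 0.0388), and TNFSF13B, the B cell survival factor BAFF, which was above background in every infarct array and in no sham array (at least 2.51-fold higher, adjusted p = 0.0110). The TNFSF13B call was lost without fetal infarct 3 (2.79, adjusted p = 0.0648), and IL1RN passed only without fetal infarct 2 (3.53, adjusted p = 0.0402) among the 6 omissions, with its highest adjusted p of 0.143 without fetal infarct 3 (2.72). These were named after their values were seen. IFNG and IL12A, cytokines of the T helper response, were above background on 2 of 3 arrays in each group and did not pass. The chemokine CXCL10, an interferon target, gave -1.34 and did not pass either. In the interferon response list 2 of 10 members rose, and both were receptor chains, IFNAR1 (0.91 ± 0.20, adjusted p = 0.00659) and IFNAR2 (1.03 ± 0.31, adjusted p = 0.0311). The IFNAR2 call was lost on omission of fetal infarct 1 (0.90, adjusted p = 0.0985), fetal infarct 3 (1.02, adjusted p = 0.0928) or of fetal sham 3 (0.78, adjusted p = 0.144). The same 2 chains were the members that rose among 6 cytokine receptors.

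Among 20 genes of innate sensing and the acute phase 6 rose and none fell, with a median of 1.12. TLR2, the receptor for bacterial lipopeptides, read -1.09, -1.79 and -0.46 in infarct and -4.11, -4.19 and -4.85 in sham (3.27 ± 0.75, adjusted p = 0.00797). TLR6, which pairs with it, rose by 1.79 ± 0.33 (adjusted p = 0.00258). TLR4, the lipopolysaccharide receptor, rose by 1.88 ± 0.46 (adjusted p = 0.0105), and without fetal infarct 3 its difference was 1.55 (adjusted p = 0.0672). Another TLR4 probe gave 1.86 and did not pass (adjusted p = 0.125). The other genes that rose were CD14, PTGS2 and ALOX5AP. PTX3, a soluble pattern receptor, gave 0.48 ± 0.52.

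Prostanoid and leukotriene genes went in both directions. PTGS2, the inducible cyclooxygenase, read -0.96, -2.16 and -1.48 in infarct and -3.44, -3.74 and -3.93 in sham (2.17 ± 0.43, adjusted p = 0.00353), although another PTGS2 probe gave -0.71. ALOX5AP, which delivers arachidonic acid for leukotriene synthesis, rose by 2.32 ± 0.46 (adjusted p = 0.00348). PTGER3, a receptor of prostaglandin E2, read 0.17, -0.05 and -0.51 in infarct and 1.55, 1.26 and 1.70 in sham and fell by 1.63 ± 0.37 (adjusted p = 0.00762). The constitutive cyclooxygenase PTGS1 fell by 1.02 (adjusted p = 0.0299) and the prostaglandin D synthase PTGDS by 1.25 (adjusted p = 0.0221). In all, 2 of 9 members rose and 3 fell, and without fetal infarct 3 or fetal sham 3 only 1 fell in each case. PTGS1 was then at -0.76 (adjusted p = 0.161) and -1.06 (adjusted p = 0.0684), and PTGDS at -0.97 (adjusted p = 0.124) and -1.27 (adjusted p = 0.0588). The PTGS1 call was also lost on omission of fetal sham 1 (-0.92, adjusted p = 0.102) or of fetal infarct 2 (-0.93, adjusted p = 0.0858), and the PTGDS call on omission of fetal sham 2 (-1.14, adjusted p = 0.0660).

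Genes of leukocyte adhesion rose in 5 of 15 cases and fell in none, with a median of 0.40. Beside the integrin chains ITGB2 and ITGAM, ITGAV, the alpha chain of the vitronectin receptor, read 0.20, -0.03 and 0.01 in infarct against -1.82, -1.87 and -1.65 in sham (1.84 ± 0.33, adjusted p = 0.00224). SELP, the selectin that platelets and activated endothelium display, was above background on all infarct arrays and on 1 sham array, and with the others at the limit of detection it was 3.26-fold higher (adjusted p = 0.0151). That call was lost on omission of fetal sham 1 (2.61, adjusted p = 0.0742) or of fetal sham 3 (2.66, adjusted p = 0.0730). Another SELP probe gave 1.77 and did not pass (adjusted p = 0.100). ICAM1, the ligand of the leukocyte integrins, rose by 1.21 ± 0.40 (adjusted p = 0.0449) and lost its call on omission of fetal infarct 1 (1.37, adjusted p = 0.0534), fetal sham 2 (1.16, adjusted p = 0.0953), fetal infarct 3 (0.86, adjusted p = 0.216) or of fetal sham 3 (0.93, adjusted p = 0.182). Without fetal sham 3, 3 members of the list rose.

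Of 15 genes of the lysosome and phagosome 11 rose and 1 fell, with a median of 1.05. CTSB, the cathepsin B protease, read 2.80, 2.96 and 4.13 in infarct and 0.75, 0.99 and 0.55 in sham (2.53 ± 0.51, adjusted p = 0.00382). LGMN, the lysosomal endopeptidase legumain, read 4.45, 4.58 and 5.32 against 2.16, 2.10 and 1.90 (2.73 ± 0.46, adjusted p = 0.00174). PSAP, the precursor of the saposins that help degrade sphingolipids, rose by 1.76 ± 0.34 (adjusted p = 0.00332) on its brightest probe and gave -0.33 on another. For CTSB and LGMN every infarct array was above every sham array. CTSL, the cathepsin L protease, was the member that fell (-0.68 ± 0.21, adjusted p = 0.0300), a call lost on omission of fetal infarct 1 (-0.67, adjusted p = 0.0688), fetal sham 1 (-0.56, adjusted p = 0.125), fetal infarct 3 (-0.58, adjusted p = 0.133) or of fetal sham 3 (-0.69, adjusted p = 0.0746). Without fetal sham 1, fetal infarct 3 or fetal sham 3 the number that rose was 6 in each case.

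Matrix proteases, their inhibitors and the plasminogen system rose in 9 of 15 cases and fell in 1, that of CTSL, with a median of 1.55. PLAUR, the receptor that holds urokinase at the cell surface, read 1.00, 0.39 and 1.02 in infarct and -3.29, -3.71 and -3.86 in sham. Both groups were tight and far apart, with a difference of 4.42 ± 0.76 (adjusted p = 0.00190). TIMP1, the inhibitor of matrix metalloproteinases, read 7.81, 7.57 and 7.31 in infarct and 4.30, 5.94 and 3.80 in sham (2.88 ± 0.65, adjusted p = 0.00688). MMP14, the membrane-bound collagenase, rose by 1.55 ± 0.31 (adjusted p = 0.00388), and MMP2, the gelatinase it activates, by 1.21 ± 0.25 (adjusted p = 0.00388). Another MMP14 probe passed (1.45, adjusted p = 0.0191), but those at 0.85 (adjusted p = 0.0915) and 1.12 (adjusted p = 0.259) did not. MMP1, MMP9 and MMP13 did not pass and were above background on at most 1 of 3 sham arrays.

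Structural matrix genes rose in 5 of 12 cases and fell in none, with a median of 1.42. COL12A1, a collagen that decorates fibril surfaces, read 3.24, 2.86 and 2.99 in infarct and 0.19, 1.03 and 0.43 in sham (2.48 ± 0.41, adjusted p = 0.00167). COL5A2, a collagen that sets fibril diameter, rose by 1.62 ± 0.34 (adjusted p = 0.00511), and BGN, the proteoglycan biglycan, by 1.71 ± 0.34 (adjusted p = 0.00350). COL1A1, the main collagen of scar, read 2.01, 1.40 and 1.07 in infarct against -0.82, 0.37 and -1.16 in sham, with no overlap (2.03 ± 0.50, adjusted p = 0.0106), and a second probe gave 2.34. Its difference without fetal sham 3 was 1.72 (adjusted p = 0.0573), and 3 members of the list rose without that array. COL3A1, which forms thin fibrils with type I collagen, differed by 1.22 ± 0.66 (adjusted p = 0.215), and its sham arrays ran from 2.02 to 3.72. The COL1A1 probe is given because it reads the collagen gene on which a scar is usually judged.
COL1A1: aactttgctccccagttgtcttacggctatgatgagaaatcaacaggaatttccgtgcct

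Of 7 genes for actin, S100, galectin and annexin proteins 5 rose and none fell, with a median of 1.44. S100A4, which binds calcium in motile cells such as macrophages and fibroblasts, read 5.07, 3.86 and 5.49 in infarct and 0.01, 1.70 and -0.42 in sham (4.37 ± 0.83, adjusted p = 0.00281). LGALS1, the galactoside-binding galectin 1, read 6.66, 6.31 and 6.50 against 3.90, 4.66 and 3.83 (2.36 ± 0.42, adjusted p = 0.00201). ANXA2, an annexin that binds tissue plasminogen activator, rose by 1.46 ± 0.26 (adjusted p = 0.00214). No array overlapped between the groups for these 3 genes. In the list of fibroblast and myofibroblast markers 3 of 10 rose: S100A4, COL1A1 and VIM, the intermediate filament vimentin, which was 2.14-fold higher (adjusted p = 0.0175). The VIM call was lost on omission of fetal infarct 1 (0.95 on the log2 scale, adjusted p = 0.0658) or of fetal sham 3 (1.04, adjusted p = 0.0626). MYLK, the myosin light chain kinase of smooth muscle, rose by 1.53 ± 0.30 (adjusted p = 0.00333), 1 of 2 smooth muscle markers.

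**Figure D3:**
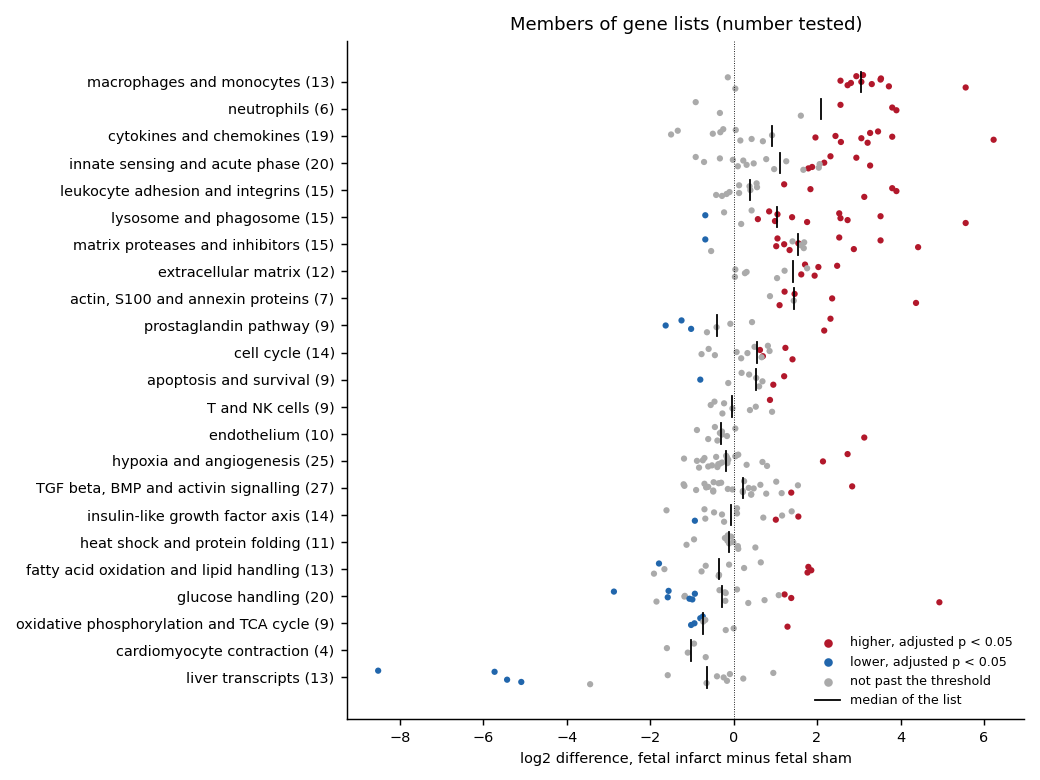
Log2 difference of fetal infarct minus fetal sham (horizontal axis) for the measured members of 23 gene lists, 1 point per gene, red where it rose, blue where it fell and grey where it did not pass the test, with a line at each list's median. The macrophage list lies furthest to the right, with a median of 3.06, and the liver list holds the lowest values, down to -8.52.

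Of 27 members of the transforming growth factor, bone morphogenetic protein and activin list 2 rose and none fell, with a median of 0.22. That share of rises is below the 14.4% of all named genes. FST, the activin-binding protein follistatin, read -0.40, 0.78 and 0.72 in infarct and -2.17, -1.92 and -3.34 in sham (2.84 ± 0.57, adjusted p = 0.00376), without overlap. TGFB2 rose by 1.38 ± 0.37 (adjusted p = 0.0178), a call lost on omission of fetal infarct 1 (1.26, adjusted p = 0.0592) or of fetal sham 3 (1.12, adjusted p = 0.0888), while TGFB1 gave 0.22. In the insulin-like growth factor axis 2 of 14 members rose and 1 fell, near the 14.4% and 6.20% of all named genes. Those that rose were binding proteins, IGFBP6 (1.01 ± 0.23, adjusted p = 0.00732) and IGFBP3 (1.55 ± 0.42, adjusted p = 0.0175). The latter was lost on omission of fetal infarct 1 (1.30, adjusted p = 0.0713), fetal infarct 3 (1.60, adjusted p = 0.0542) or of fetal sham 3 (1.45, adjusted p = 0.0651). IGF2, the abundant fetal growth factor, read 7.60, 7.61 and 7.35 in infarct and 7.68, 7.51 and 7.14 in sham, overlapping groups with a difference of 0.08 ± 0.30. IGF1 gave 1.39 ± 0.50 (adjusted p = 0.0630), and INSR, the insulin receptor, was the member that fell (-0.93 ± 0.29, adjusted p = 0.0353). On omission of fetal infarct 1 (-0.94, adjusted p = 0.0714), fetal sham 1 (-0.73, adjusted p = 0.150), fetal infarct 2 (-0.86, adjusted p = 0.0957), fetal infarct 3 (-0.99, adjusted p = 0.0797) or of fetal sham 3 (-0.88, adjusted p = 0.102) INSR did not pass.

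Hypoxia and angiogenesis genes rose in 2 of 25 cases, a share below the 14.4% of all named genes. None fell, and the median was -0.18. ADORA3, an adenosine receptor, read -2.45, -1.21 and -0.12 in infarct and -3.78, -3.80 and -4.40 in sham (2.73 ± 0.61, adjusted p = 0.00664). HGF, the hepatocyte growth factor made by mesenchymal cells, rose by 2.14 ± 0.56 (adjusted p = 0.0159) and lost its call on omission of fetal infarct 3 (1.99, adjusted p = 0.0707) or of fetal sham 3 (1.82, adjusted p = 0.0752). VEGFA, the main endothelial growth factor, ran from -0.60 to 2.26 in infarct and from 1.45 to 2.21 in sham, with a difference of -0.83 ± 0.54 (adjusted p = 0.315). HIF1A gave 0.69 (adjusted p = 0.182).

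PCSK1 and STAR were among the 12 named genes with the largest fitted rises. PCSK1, a protease that cuts prohormones in endocrine cells, read -2.79, -1.65 and -4.00 in infarct and was above background on no sham array, so that the infarct mean was at least 8.31-fold higher (adjusted p = 0.00762). STAR, which carries cholesterol into mitochondria for steroid synthesis, read -1.53, -2.44 and -1.96 in infarct and -4.55, -5.98 and -7.30 in sham, where 1 array was above background. With the other arrays at the limit of detection it was 10.7-fold higher (adjusted p = 0.0107), and without fetal sham 3 the call was lost (3.29, adjusted p = 0.0587). NRG1, the ErbB receptor ligand neuregulin 1, was above background in all infarct and no sham arrays and at least 9.51-fold higher (adjusted p = 0.0219). It was named after its values were seen, and its call was lost on omission of fetal sham 1 (3.31, adjusted p = 0.0680), fetal infarct 2 (3.24, adjusted p = 0.0600), fetal infarct 3 (3.56, adjusted p = 0.0629) or of fetal sham 3 (3.48, adjusted p = 0.0585). Of the 14 steroid and thyroid hormone genes 2 rose and 1 fell, near the 14.4% and 6.20% of all named genes. The gene that fell was NR3C2, the mineralocorticoid receptor (-1.08 ± 0.34, adjusted p = 0.0336). That fall did not pass on omission of fetal infarct 1 (-1.18, adjusted p = 0.0506), fetal sham 1 (-1.16, adjusted p = 0.0651), fetal sham 2 (-0.95, adjusted p = 0.0988), fetal infarct 3 (-0.84, adjusted p = 0.166) or of fetal sham 3 (-1.14, adjusted p = 0.0697). AGTR1, the angiotensin II type 1 receptor, read -0.82, -0.80 and -1.26 in infarct and 0.54, 0.75 and 0.22 in sham and fell by 1.46 (adjusted p = 0.00947), or by 1.31 without fetal infarct 3 (adjusted p = 0.0538). It was the member that fell among 11 genes of renin-angiotensin, natriuretic and adrenergic signalling.

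Genes of muscle energy supply were lower in part. Of 20 genes of glucose handling 3 rose and 6 fell, with a median of -0.27. SLC2A5, the fructose transporter, read 0.29, -0.91 and -0.03 in infarct and -5.66, -4.78 and -4.99 in sham, where 2 of 3 arrays were above background (4.93 ± 0.98, adjusted p = 0.00353). PYGB, the brain form of glycogen phosphorylase that fetal muscle also uses, read -0.71, -0.51 and -0.86 in infarct and 0.95, 0.73 and 0.97 in sham. The groups were tight and did not overlap, and it fell by 1.58 ± 0.21 (adjusted p = 0.00124). PYGL, the liver form, rose by 1.38 ± 0.30 (adjusted p = 0.00645). The third gene that rose was LDHA, a lactate dehydrogenase subunit, which read 4.62, 4.25 and 4.73 in infarct and 3.59, 3.60 and 2.75 in sham (1.22 ± 0.36, adjusted p = 0.0267), without overlap. Its call was lost on omission of fetal infarct 1 (1.18, adjusted p = 0.0676), fetal infarct 3 (1.12, adjusted p = 0.103) or of fetal sham 3 (0.94, adjusted p = 0.128).

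FBP2, the muscle form of fructose-bisphosphatase, read -4.01, -3.83 and -5.19 in sham and was above background on no infarct array, so that sham was at least 3.10-fold higher (adjusted p = 0.00353). Its probe is shown because it was detected on every fetal sham and on no fetal infarct array. It was above background on no fetal border array and on 1 of 3 fetal remote arrays. In the adolescent it was above background on all 3 infarct arrays and on no sham, border or remote array.
FBP2: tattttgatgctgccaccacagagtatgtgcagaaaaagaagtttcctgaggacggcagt
ENO3, the muscle enolase, read 1.74, 1.98 and 1.39 in infarct and 3.23, 3.38 and 3.19 in sham and fell by 1.56 (adjusted p = 0.0422). Its call was lost when any of the 6 arrays was left out: fetal infarct 1 (-1.58, adjusted p = 0.0820), fetal sham 1 (-1.58, adjusted p = 0.0941), fetal infarct 2 (-1.70, adjusted p = 0.0596), fetal sham 2 (-1.51, adjusted p = 0.0909), fetal infarct 3 (-1.41, adjusted p = 0.146) and fetal sham 3 (-1.60, adjusted p = 0.0902). The glucose transporter SLC2A4, which answers to insulin, gave -1.85 ± 0.68 (adjusted p = 0.0672), and SLC2A1 gave 0.74 ± 0.59 with overlapping arrays. The number of glucose genes that fell was 2 without fetal sham 1, fetal infarct 2, fetal infarct 3 or fetal sham 3, 3 without fetal sham 2 and 4 without fetal infarct 1.

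In fatty acid oxidation and lipid handling 3 of 13 genes rose and 1 fell, with a median of -0.35. CPT1B, the muscle enzyme that admits fatty acids to mitochondria, read 0.97, 0.88 and -0.18 in infarct and 2.72, 2.00 and 2.30 in sham and fell by 1.79 ± 0.37 (adjusted p = 0.00482). PLIN2, a coat protein of lipid droplets, rose by 1.86 ± 0.41 (adjusted p = 0.00658). PPARGC1A, the coactivator of mitochondrial genes, gave -1.91 ± 0.75 (adjusted p = 0.0880). The other 2 rises, of the fatty acid binding protein FABP5 and the lipid-sensing nuclear receptor PPARG, ended without fetal infarct 3, at 1.37 (adjusted p = 0.171) and 1.38 (adjusted p = 0.151), and without fetal sham 3, at 1.52 (adjusted p = 0.131) and 1.09 (adjusted p = 0.164). FABP5 also lost its call without fetal sham 1 (1.28, adjusted p = 0.170). Without fetal infarct 1, 4 genes of this list fell. BCKDHA, a subunit of the complex that breaks down branched-chain amino acids, is in neither of these lists. It read -1.72, -2.61 and -2.29 in infarct and -0.64, -0.91 and -0.36 in sham, without overlap, and fell by 1.57 ± 0.42 (adjusted p = 0.0175). Its call was lost on omission of fetal sham 1 (-1.57, adjusted p = 0.0510), fetal infarct 2 (-1.37, adjusted p = 0.0635), fetal infarct 3 (-1.53, adjusted p = 0.0672) or of fetal sham 3 (-1.43, adjusted p = 0.0692).

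Of 9 genes of oxidative phosphorylation and the tricarboxylic acid cycle 1 rose and 4 fell, with a median of -0.73. SLC25A4, the ADP/ATP carrier of muscle, read 6.93, 6.91 and 6.26 in infarct and 7.89, 7.74 and 7.54 in sham and fell by 1.02 (adjusted p = 0.0408). SLC25A5, the carrier of proliferating cells, was the gene that rose, from 1.73, 1.58 and 1.69 in sham to 2.89, 2.85 and 3.11 in infarct (1.29 ± 0.28, adjusted p = 0.00591). The other 3 that fell were SDHD (-0.94, adjusted p = 0.0111), ATP5MC2 (-0.80, adjusted p = 0.0363) and ATP5MC1 (-0.74, adjusted p = 0.0236), subunits of complex II and of the ATP synthase. Other ATP5MC1 probes gave -0.80 (adjusted p = 0.0279), -1.51 (adjusted p = 0.00192) and -1.59 (adjusted p = 0.00414). The list had no fall without fetal sham 1 or without fetal infarct 3, 4 without fetal infarct 1, 2 without fetal infarct 2, 2 without fetal sham 3 and 1 without fetal sham 2. SLC25A4 passed on none of the 6 omissions: leaving out fetal infarct 1 gave -1.14 (adjusted p = 0.0537), fetal infarct 2 -1.13 (adjusted p = 0.0544), fetal sham 3 -1.11 (adjusted p = 0.0714) and fetal sham 2 -1.01 (adjusted p = 0.0809). In the runs without fetal sham 1 and without fetal infarct 3, SLC25A4 was at -0.94 (adjusted p = 0.120) and -0.80 (adjusted p = 0.181), SDHD at -0.79 (adjusted p = 0.0582) and -0.81 (adjusted p = 0.0647), ATP5MC2 at -0.80 (adjusted p = 0.0889) and -0.62 (adjusted p = 0.173), and ATP5MC1 at -0.68 (adjusted p = 0.0811) and -0.56 (adjusted p = 0.132).

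The muscle genes MB and MYH7 were above background on every array of both groups. MB, the oxygen store myoglobin, read 6.26, 5.64 and 5.41 in infarct and 7.53, 7.31 and 7.28 in sham, without overlap and with a difference of -1.60 ± 0.60 (adjusted p = 0.0710). MYH7, the slow myosin heavy chain, read 2.90, 2.35 and 1.14 against 3.41, 3.50 and 2.78, with fetal infarct 1 above fetal sham 3 (-1.10 ± 0.65, adjusted p = 0.260). None of the 4 measured contractile genes passed, and their median was -1.02. GJA1, the gap junction protein connexin 43 that couples heart muscle cells, read 1.62, 1.77 and 1.20 in infarct and 2.78, 2.90 and 3.12 in sham and fell by 1.40 ± 0.31 (adjusted p = 0.00608). Another GJA1 probe also passed (-1.36, adjusted p = 0.0119), but those at -1.10 (adjusted p = 0.126) and -1.06 (adjusted p = 0.107) did not. GJA1 was the member that fell of the 2 measured from the list of excitation and calcium handling, and the other, ATP1B1, gave -0.58 and did not pass.

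Cell cycle genes rose in 4 of 14 cases and fell in none, with a median of 0.56. TYMS, the thymidylate synthase that supplies DNA synthesis, read -0.60, -0.54 and 0.10 in infarct and -1.87, -2.03 and -1.37 in sham (1.41 ± 0.31, adjusted p = 0.00677), and was the gene of this list that passed with each array left out. CCNB1, the mitotic cyclin B1, rose by 1.24 ± 0.37 (adjusted p = 0.0277) but not on omission of fetal sham 1 (1.01, adjusted p = 0.119), fetal infarct 2 (1.28, adjusted p = 0.0528) or of fetal infarct 3 (1.13, adjusted p = 0.108). CDK1, its kinase partner, gave 0.86 ± 0.36 (adjusted p = 0.107), and CCNA2, the S-phase cyclin A2, 0.50 ± 0.40 (adjusted p = 0.424). Without fetal sham 1 or fetal infarct 3 the list had 1 rise, and without fetal infarct 2 it had 2.

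Among 9 genes of apoptosis and survival, the death effector BAX (1.21 ± 0.30, adjusted p = 0.0124) and the survival protein MCL1 (0.95 ± 0.24, adjusted p = 0.0135) rose, and the survival protein BCL2L1 fell (-0.80 ± 0.24, adjusted p = 0.0284). Without fetal infarct 3 none of the 3 passed, with BAX at 0.93 (adjusted p = 0.0827), MCL1 at 0.89 (adjusted p = 0.0626) and BCL2L1 at -0.76 (adjusted p = 0.0987). BAX was also lost without fetal sham 1 (1.04, adjusted p = 0.0613) and MCL1 without fetal sham 3 (0.65, adjusted p = 0.0807). BCL2L1 was lost on omission of fetal infarct 1 (-0.84, adjusted p = 0.0511), fetal sham 1 (-0.59, adjusted p = 0.140) or of fetal infarct 2 (-0.80, adjusted p = 0.0613). None of 11 heat shock and protein folding genes passed, with a median of -0.11. The antioxidant thioredoxin, TXN, rose by 1.27 ± 0.22 (adjusted p = 0.00197), 1 of 9 genes of its list.

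Markers of other cells and tissues held few calls. Of 9 markers of T and natural killer cells 1 rose, and their summed level ran from -1.11 to -0.69 in infarct and from -1.02 to -0.61 in sham. That gene was CD247, the zeta chain of the T cell receptor (0.87 ± 0.27, adjusted p = 0.0322), while CD3E gave -0.23 and CD3D -0.46. CD247 did not pass on omission of fetal sham 1 (0.77, adjusted p = 0.113), fetal infarct 2 (0.72, adjusted p = 0.113), fetal infarct 3 (0.78, adjusted p = 0.124) or of fetal sham 3 (0.89, adjusted p = 0.0776). Of 10 endothelial markers SELP alone rose, and PECAM1 and KDR, which define the lineage, both gave -0.28. The B cell marker measured, CR2, did not pass. None of 3 mast cell markers passed, although their median was -1.59, with TPSB2 at -2.60 (adjusted p = 0.0671). None of 4 erythroid markers passed, and HBB, the beta globin, ran from 5.75 to 7.08 in infarct and from 6.05 to 7.91 in sham.

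The remaining lists had few measured members, and the share called varied among them. In antigen presentation 3 of 5 members rose, with a median of 1.33: CTSS, CD1B, which presents lipids to T cells and was above background on 2 of 3 sham arrays (2.92 ± 0.71, adjusted p = 0.0107), and PSMB8, a subunit of the immunoproteasome (1.33 ± 0.32, adjusted p = 0.00929). Without fetal infarct 3 CTSS was the 1 member left, with CD1B at 2.32 (adjusted p = 0.0722) and PSMB8 at 0.91 (adjusted p = 0.0611), and CD1B was also lost without fetal sham 3 (2.35, adjusted p = 0.0612). In coagulation and platelets 2 of 6 rose, PLAUR and PLAU, the urokinase it binds (1.02 ± 0.29, adjusted p = 0.0243). PLAU was lost on omission of fetal infarct 2 (0.97, adjusted p = 0.0634), fetal sham 2 (1.01, adjusted p = 0.0546), fetal infarct 3 (0.87, adjusted p = 0.113) or of fetal sham 3 (0.88, adjusted p = 0.0984). In complement C5AR1 was the 1 of 3 that rose, in adipocyte markers PPARG was the 1 of 8, and 1 of 6 skeletal muscle markers rose. In Wnt, Notch, hedgehog and other developmental signalling 1 of 8 fell, in lung and epithelium 2 of 10 fell, and no member passed among 2 heart transcription factors, 2 neural markers and 1 epicardial marker.

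Genes near the background made up part of the largest falls. COL4A3, a collagen of specialised basement membranes, read -5.20, -4.28 and -5.42 in sham and was not above background on any infarct array, so that sham was at least 2.01-fold higher (adjusted p = 0.0144). GRIA2, a glutamate receptor subunit, and CHIA, an acidic chitinase, were above background on 2 of 3 sham arrays and on no infarct array, at least 1.78-fold and 1.84-fold higher in sham. No other of the 8 groups had 2 arrays above background for GRIA2 or CHIA, so both entered the test only through the group where they are high, and their calls are given as a description. The COL4A3 call was lost on omission of fetal infarct 2 (-1.92, adjusted p = 0.0654) or of fetal sham 2 (-2.11, adjusted p = 0.0549). The GRIA2 call was lost on omission of 4 of the 6 arrays and the CHIA call on omission of 5.

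**Figure D4:**
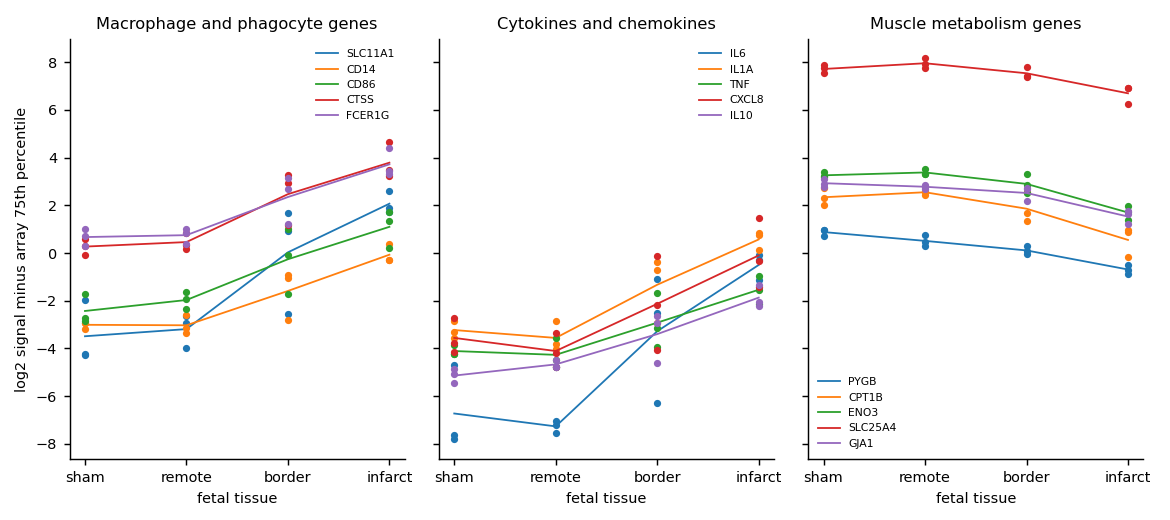
Signal of 15 genes in fetal sham, remote, border and infarct tissue, as log2 signal minus the array's 75th percentile (vertical axis), with 1 point per array and lines joining the group means of 3 arrays. The phagocyte and cytokine genes have border means between the sham and the infarct mean, and fetal border 3 lies below the other border arrays, at -6.27 for IL6 against -1.07 and -2.51.

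The border and remote zones of the infarcted fetal hearts give the same genes in tissue not directly cut off, with the sham arrays as the shared control. The border arrays differed among themselves. SLC11A1 read 1.70, 0.94 and -2.57 in border and -2.64, -2.93 and -4.00 in remote tissue. CD14 read -0.91, -1.05 and -2.79 against -2.59, -3.13 and -3.37, and IL6 read -1.07, -2.51 and -6.27 against -7.04, -7.23 and -7.53. For these genes fetal border 3 stood apart, near the remote and sham arrays, while fetal border 1 and 2 lay higher. PLAUR had the same order, with 0.50, -0.47 and -3.15 in border tissue, as had CD86 with 1.01, -0.09 and -1.72 and IL1A with -0.37, -0.70 and -2.93. The border mean of each of these 6 genes therefore lay between the infarct and the sham mean, but none passed against either, with adjusted p of 0.443 or more against sham and of 0.339 or more for infarct against border. Border tissue differed from sham at 2 of 12451 probes (0.0161%) by the same limma fit. AHSG, a liver transcript high on the sham arrays, was among those called, with border minus sham at -8.71 (adjusted p = 0.0418). Infarct differed from border at none (0%), with 1550 at an unadjusted p under 0.05. Against remote tissue the infarct differed at 2171 probes (17.4%), and remote tissue differed from sham at 2 (0.0161%). PYGB had means of 0.11 in border and 0.51 in remote tissue, GJA1 2.52 and 2.78, and CPT1B 1.86 and 2.55. The liver transcripts were low in both zones, with AHSG at -5.37 in border and -5.97 in remote tissue.

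The adolescent hearts gave the same contrast at another age, with infarct arrays of their own and 2 sham arrays. The age difference, fetal minus adolescent, was past its threshold and positive for 14.5% of the 12451 probes and negative for 10.5%. In the authors' deposited log2 table the balance turned, with 1247 positive and 1454 negative. Positive means that the fetal difference was the higher of the 2 signed values. Adolescent sham 3 had a 75th percentile of 128.9 intensity units and 60.97% of probes above background, the lowest of the 23 arrays on both counts, and its part in the age differences was not tested beyond leaving it out. Of the 13 macrophage and monocyte markers 1 had an age difference past the threshold, and of the 19 cytokine genes 2 had a positive and 1 a negative one. SLC11A1 gave 5.56 in the fetus and 5.86 in the adolescent (age difference -0.30 ± 1.66, adjusted p = 0.917). IL6 and IL1A were above background on no adolescent sham array, so that adolescent infarct was at least 23.9-fold and at least 4.87-fold higher, and their age differences had adjusted p of 0.955 and 0.944. CXCL8 gave 3.46 and 6.86, with 1 of 2 adolescent sham arrays above background (-3.40, adjusted p = 0.0842). These p-values do not show that the ages act alike.

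Muscle and mitotic genes differed between the ages. MYH7 gave -1.10 in the fetus and -8.20 in the adolescent, an age difference of 7.10 (adjusted p = 0.000177). For PRKAA2, a catalytic subunit of the energy sensor AMPK, the values were -1.18 and -7.44 (6.26, adjusted p = 0.000230), or 5.85 with the 2 adolescent infarct arrays not above background set to the limit of detection. For SLC2A4 they were -1.85 and -6.92 (5.07, adjusted p = 0.00199). CCNA2, TYMS and ASPM, a spindle protein of dividing cells, were above background on no adolescent sham array. Adolescent infarct was at least 20.7-fold higher for CCNA2, 23.7-fold for TYMS and 9.83-fold for ASPM, against fetal differences of 0.50, 1.41 and 0.60 on the log2 scale. With the adolescent sham arrays at the limit of detection the age differences were -3.87, -3.16 and -2.70, and the fit to the signals as read gave adjusted p of 3.26e-05, 3.01e-05 and 0.00134. Of the 14 cell cycle genes 9 had a negative and 1 a positive age difference past the threshold, and of the 4 contractile genes all 4 had a positive one.

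**Figure D5:**
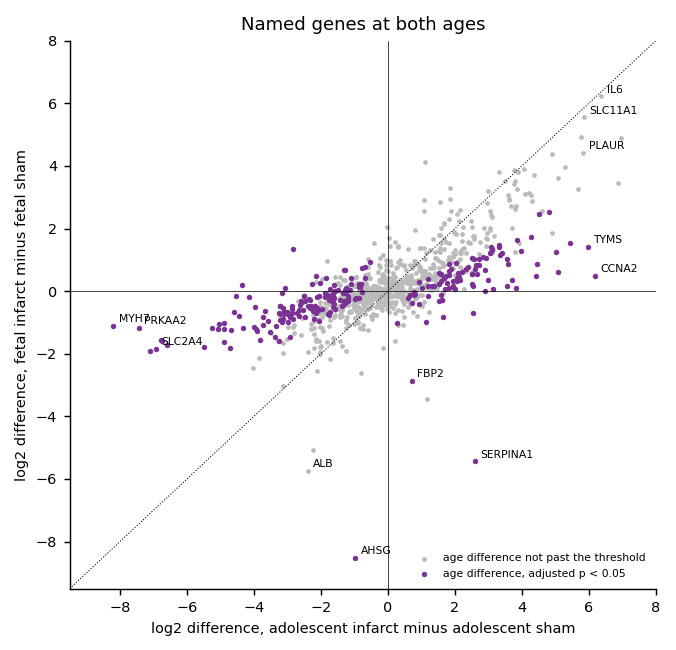
Log2 difference of infarct minus sham in the fetus (vertical axis) against the same in the adolescent (horizontal axis) for the 887 named genes, purple where the age difference passed the test, with a dotted line of equal values. Values not above background are plotted as read. SLC11A1 lies near the line at 5.56 in the fetus and 5.86 in the adolescent, whereas MYH7 lies at -1.10 in the fetus and -8.20 in the adolescent.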

How the data were processed

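The deposited raw files hold spot intensity, background-subtracted and detrended on each array by Agilent Feature Extraction 10.1.1.1, per the file headers, with no normalization between arrays. The authors also deposited a log2 table of 8411 probes, whose normalization is not given in the sources used here. The submitters' processing notes name limma. RNA integrity numbers were 7.6 to 9.5, per the labels' protocols.

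From the processed intensity, outlier-flagged spots were left out, log2 was taken, spots of a probe were averaged and values were scaled to the 75th percentile of their array. Tests covered probes for which any group had at least 2 arrays well above background. One limma model (R 4.3.3, limma 3.58.1) held 8 group means over 23 arrays, with 15 residual degrees of freedom and Benjamini-Hochberg adjustment over all probes. For "at least" folds, values not above background were raised to the lowest signal called above background on their array. Of 15008 probes, 1752 had a name. The pipeline was tested on simulated data.

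The members and the 44 gene lists were chosen with earlier results of these data known. Genes named were the 12 highest and 12 lowest past the threshold whose sign was the same on every slide, up to 5 called members a list, up to 6 age differences in each direction, all measured liver transcripts and a fixed set of 22, of which 18 were measured. Some genes are not reported here and were left out of the lists and of this choice. Each replicate number stood for 1 slide, and each group held the same position on every slide, so these cannot be told apart. Same-numbered fetal infarct and sham arrays deviated together (r = 0.235, 0.109 and 0.192). By the rule that each of at least 3 pairs exceeds 0.1, the numbers were taken to pair them. Adolescent infarct and sham arrays of 1 number gave r = 0.0138 and -0.0326. The p-values of the main model do not use the pairing, and the replicate block was run as an alternative. The other alternatives were background correction, normalization, scaling, filters, array weights, fewer arrays in the fit and each array left out. Array number and signal over background limit the precision.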

Additional observations from a re-analysis of the deposited data

Results flagged for a closer look

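The infarct minus sham difference was tested between the ages by an interaction in the limma model, and 40 of the genes named by rule had an age difference (fetal minus adolescent, log2) past the threshold. The values follow by group, with 6 of the 40 no longer past the threshold without adolescent sham 3 and 7 without fetal sham 2.

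Contractile and energy genes had the less negative difference in the fetus. MYH7 differed by 7.10, MB by 5.14, PRKAA2 by 6.26, PPARGC1A by 5.21, ENO3 by 5.21 and SLC2A4 by 5.07. The carrier SLC25A4 differed by 3.86, CPT1B by 3.69, the insulin receptor INSR by 2.29, ATP5MC1 by 2.22, ATP5MC2 by 1.86, PYGB by 1.68 and SDHD by 1.12. MYH7, MB, PRKAA2, PPARGC1A and SLC2A4 did not pass the test in the fetus itself, and PRKAA2, PPARGC1A and INSR were above background on 1 of 3 adolescent infarct arrays. BCKDHA differed by 2.24. PCK1, an enzyme of glucose synthesis, differed by 2.50, with 0.23 in the fetus and -2.27 in the adolescent.

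Cell cycle genes had the lower difference in the fetus. CCNA2 differed by -5.69, TYMS by -4.56, ASPM by -4.47, CCNB1 by -3.77, CDK1 by -3.59 and H2AZ1, a histone variant, by -1.64. CCNA2, ASPM and CDK1 did not pass the test in the fetus itself. CCNA2, TYMS and ASPM were above background on no adolescent sham array and CDK1 on 1 of 2, so these sizes are not exact. For CCNA2, ASPM and CDK1 the infarct means were -0.38, -1.19 and 0.50 in the fetus and 0.05, -1.02 and 0.52 in the adolescent. Their sham means as read were -0.88, -1.78 and -0.36 in the fetus and -6.14, -6.09 and -3.93 in the adolescent. CCNB1 and H2AZ1 had infarct means of 1.79 and 3.53 in the fetus and 2.39 and 4.19 in the adolescent. The carrier SLC25A5 differed by -2.71. Of 15 matrix proteases and inhibitors 2 had an age difference past the threshold, PLAU at -2.54 and CTSB at -2.27, and of 12 structural matrix genes COL5A2 at -2.24 and COL12A1 at -2.04. ANXA2 differed by -1.85, ACTG1, a cytoplasmic actin, by -1.82 and LDHA, a lactate dehydrogenase subunit, by -2.19. PTX3 differed by -3.94, with 0.48 in the fetus and no adolescent sham array above background (-1.79 with these at the limit of detection).

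Receptor and signalling genes that fell less in the fetus were PTGDS (3.44), PTGER3 (3.25), NR3C2 (2.65) and AGTR1 (1.47). VEGFA differed by 2.90, with -0.83 in the fetus and -3.72 in the adolescent, and IGF2 by 1.29, with 0.08 and -1.21. PTGS1 differed by -1.29, with -1.02 and 0.26. FBP2 differed by -3.58 on the signals as read, but it was above background on no fetal infarct and no adolescent sham array, and the difference was -0.35 with these at the limit of detection. AHSG differed by -7.55 and SERPINA1 by -8.05, and the fetal side of both rests on the sham arrays with liver transcripts. AHSG was above background on no adolescent infarct or sham array and SERPINA1 on no adolescent sham array, so neither size is exact.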

How the results depend on the processing

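Of 2117 called probes 2080 were also called with the replicate block (2482 calls, 1329 higher and 1153 lower), which ended no call among the named genes. The age difference had 3107 calls (1804 positive, 1303 negative) and 3412 with the block (2000 and 1412), 2701 in the deposited table (1247 and 1454) and 3184 with quantile normalization (1613 and 1571). The deposited table gave 2465 calls over 8411 probes (1130 higher, 1335 lower) and quantile normalization 2552 (1244 and 1308). With array weights 1510 probes fell, and with the 6 arrays alone in the fit 620 fell. Normexp correction of all spots left 189 calls (168 higher, 21 lower) with a median of -0.30 over all probes, and 74 (63 positive, 11 negative) for the age difference, whose median was then 0.78. On fetal sham 2 it narrowed the span from the 5th to the 75th percentile from 7.97 to 0.391 log2 units. An alternative chosen after seeing the data, normexp without outlier-flagged spots, gave a span of 3.35 there, 1996 calls (1101 higher, 895 lower) and, for the age difference, 6741 (5723 positive, 1018 negative) with a median of 0.68. Leaving out 1 array gave 832 to 1819 calls (580 to 1009 higher, 252 to 830 lower), and for the age difference 2040 to 3164 (1168 to 1844 positive, 872 to 1320 negative). Without adolescent sham 3 the age difference had 2040 calls.

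Among named genes 20 of 101 calls passed under every alternative run and 44 under every one but normexp of all spots. Of 86 other tested probes of the genes named by rule, 4 had the opposite sign. Some calls were not repeated by another probe of the gene, such as those of BCL2L1, CD247, ENO3 and IFNAR2. Signs turned for genes not past the threshold under the setting. With normexp of all spots CD247 was -0.15, PCK1 -0.34, PTX3 -0.25 and SLC2A1 -0.12, and the age differences of ASPM, FBP2 and PTX3 were 0.07, 1.63 and 0.29. Without outlier-flagged spots CYP3A24 was 0.04 and the age difference of FBP2 0.97. IGF2 was -0.01 in the deposited table, -0.02 with the array median and -0.07 to 0.20 with 1 array left out. CYP3A24 was 0.13 with quantile normalization, 0.15 with array weights and -0.47 to 0.40 with 1 array left out, being positive without fetal infarct 1, fetal sham 1 (0.13) or fetal sham 3 (0.06). LCAT was 0.04 with array weights. With 1 array left out LCAT ran from -0.60 to 0.02 (positive without fetal infarct 3), G6PC1 from -0.80 to 0.24 (positive without fetal infarct 1), SERPINC1 from -0.40 to 0.10 and TF from -1.29 to 0.38 (both positive without fetal sham 1). Apart from the normexp span, the cause was not tested.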
